A study of Mus musculus with 17 samples.

Results

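The genes described here encode the constitutive proteasome. They were found by symbol: probe sets with 1 gene symbol that begins with Psma, Psmb, Psmc or Psmd followed by a digit, without the immunoproteasome genes Psmb8, Psmb9 and Psmb10, and with 1 probe set per gene, the one with the highest mean over the 17 arrays. The rule found 37 genes among the 18193 genes measured, with 76 probe sets between them. Of these, 34 encode broadly expressed subunits of the proteasome or chaperones of its assembly. The other 3 are Psma8, a testis-specific subunit, Psmb11, a thymus-specific subunit, and Psmc3ip, a protein of meiotic recombination that is no proteasome subunit and was found through the spelling of its symbol. All 37 genes had the same symbol in the RefSeq gene table for GRCm38.p6 and lay on 16 chromosomes.

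The proteasome is the barrel-shaped protease that degrades proteins marked with ubiquitin. Its core particle is a stack of rings, with alpha subunits that form the gate and beta subunits that hold the catalytic sites. A regulatory particle caps the core, and consists of a base, whose ring of ATPases unfolds the substrate, and a lid, which removes the ubiquitin chain. Beta cells of the islet synthesise large amounts of proinsulin, and misfolded proinsulin is among the proteins that they degrade through the proteasome.

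Expression was measured in islets of untreated C57BL/6 mice, the endocrine cell clusters of the pancreas that hold the insulin-producing beta cells. In each of 6 batches, islets pooled from 4 mice were split and cultured in F12K medium with fetal bovine serum, and RNA was taken on isolation, 0 h (n = 5), and after 24 h (n = 6) or 48 h (n = 6). The same pools of islets therefore stand behind all 3 times, and replicates are numbered by batch; batch 5 enters at its later times, its 0 h array being not analysed here. The labels used here give neither age nor sex of the mice, and the portion taken at 0 h had already been through isolation. Each portion was hybridised to 1 Affymetrix mouse whole-genome array, and values are log2 signals, so that a difference of 1 is a doubling. Signals of different genes cannot be compared as levels, since each probe set has its own response, so only differences between times are compared between genes.

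The arrays had medians between 3.47 and 3.57 and correlated with each other at 0.976 to 0.995 across probe sets. Ins2, which encodes insulin, read 13.76 ± 0.03 (SD, n = 5) at 0 h, 13.73 ± 0.02 (n = 6) at 24 h and 13.69 ± 0.06 (n = 6) at 48 h, near the highest value of the table, 13.81. The 0 h array of batch 3 and the 24 h array of batch 5 correlated least with their own group, with median correlations of 0.987 and 0.988. Of 12 acinar markers, 1 was called lower at 24 h and 7 at 48 h, and their mean covered 5.11 to 8.30 at 0 h, 4.03 to 6.93 at 24 h and 3.63 to 5.40 at 48 h. Of 8 endothelial markers, 5 and 6 were called lower, and their mean ranged from 5.98 to 6.34, 5.19 to 5.44 and 4.61 to 5.10. Of 9 macrophage markers, 5 and 4 were called lower and 1 and 2 higher (means of 5.09 to 5.54, 4.70 to 4.96 and 4.74 to 5.01). Of 8 fibroblast and mural markers, 4 and 1 were called lower and 3 were called higher at 48 h (means of 4.99 to 5.41, 4.31 to 4.45 and 4.86 to 5.26). Of 5 duct markers, Krt7 was called higher at both times, and of 6 lymphocyte markers none was called; these lymphocyte markers averaged 3.37 to 3.62 on every array, near the median of all values. Of 10 islet endocrine markers, 6 and 3 were called lower, and their mean ranged from 11.34 to 11.65, 10.79 to 11.17 and 10.87 to 11.27. In bulk samples, fewer cells of a type and less RNA per cell cannot be told apart.

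Proteasome genes were higher at 24 h of culture than at 0 h. Of the 37 genes, 24 rose at an adjusted p under 0.05 in limma's moderated test, 1 fell (Psma8) and 12 did not pass. Over all genes, 5.44% were called higher and 6.66% lower in this comparison, and among the 1653 genes with a mean signal above 9, where many proteasome genes lie, 12.1% were called higher. The median log2 difference over the 37 genes was 0.40, against -0.01 over all genes. Without Psma8, Psmb11 and Psmc3ip, the median was 0.41, or 1.33-fold, and all 34 genes had a positive difference, between 0.18 (Psmb2) and 0.92 (Psmd7). None of the 37 genes doubled. For 20 of the 34 genes, every 24 h array lay above every 0 h array, a separation that 8.78% of all genes showed in either direction.

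**Figure D1:**
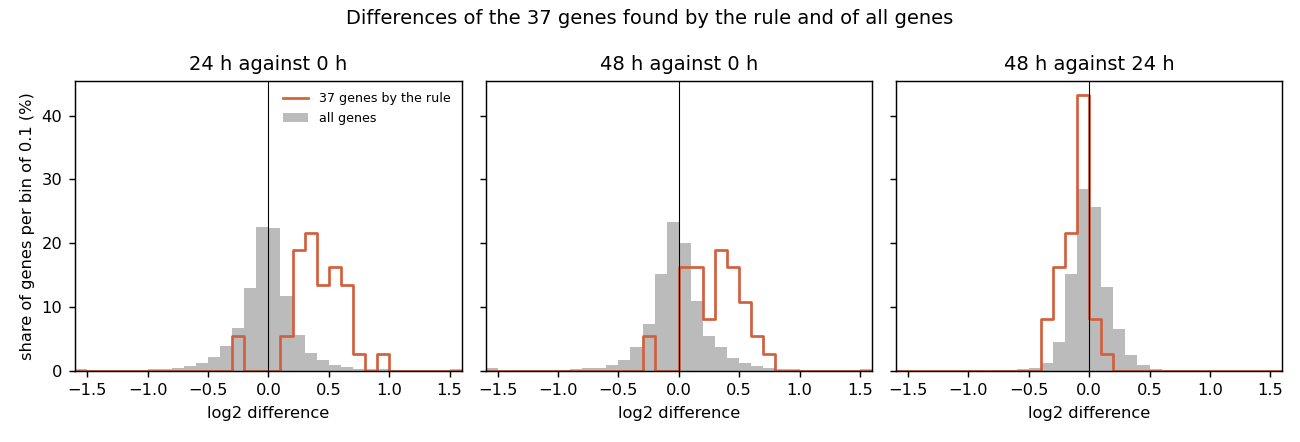
Distribution of log2 differences for the 37 genes found by the rule (line) and for all 18193 genes (grey bars), as the share of genes in each bin of 0.1 (the end bins hold all values beyond 1.5 in either direction), for 3 comparisons of times. Against 0 h the proteasome genes lie to the right of the bulk of genes, with medians of 0.40 at 24 h and 0.33 at 48 h; between 48 h and 24 h their median is -0.09.

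At 48 h the same picture held with smaller differences. Here 20 of the 37 genes rose, 1 fell (Psma8) and 16 did not pass, beside 6.45% of all genes called higher and 5.27% called lower, and 15.2% called higher among genes with a mean signal above 9. The median over the 34 genes was 0.35, or 1.27-fold, with a range from 0.06 (Psmb1) to 0.70 (Psmb7). The arrays of the 2 times did not overlap for 14 of the 34, beside 9.17% of all genes. Both comparisons share the 0 h arrays and are therefore not independent. The genes called at both times numbered 19, those at 24 h alone 5 (Psma1, Psma4, Psmb3, Psmd1 and Psmd11) and those at 48 h alone 1 (Psmb7). The 9 genes called at neither time were Psma6, Psmb1, Psmb2, Psmc4, Psmd3, Psmd5, Psmd6, Psmd7 and Psmd8, and a call at only 1 time does not show that the times differ.

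The count at 48 h depended on how the acinar signal was treated. With the average acinar signal of each array added to the model as a covariate, 21 members rose at 24 h but only 5 at 48 h (Psma3, Psmb4, Psmb5, Psmc6 and Psmd4). The median difference over the 34 genes was 0.42 at 24 h and 0.35 at 48 h, beside 0.41 and 0.35 without the covariate. All 34 differences remained positive at both times. The acinar mean itself differed between times (5.11 to 8.30 at 0 h, 3.63 to 5.40 at 48 h), so the model cannot fully tell it apart from time. The median standard error at 48 h was 0.13 with the covariate and 0.09 without it, and the share of all probe sets called at 48 h went from 8.47% to 2.85%. The part of the other markers in the result was not tested. Leaving out the 0 h array of batch 3 and the 24 h array of batch 5 gave 25 members higher at 24 h and 17 at 48 h.

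**Figure D2:**
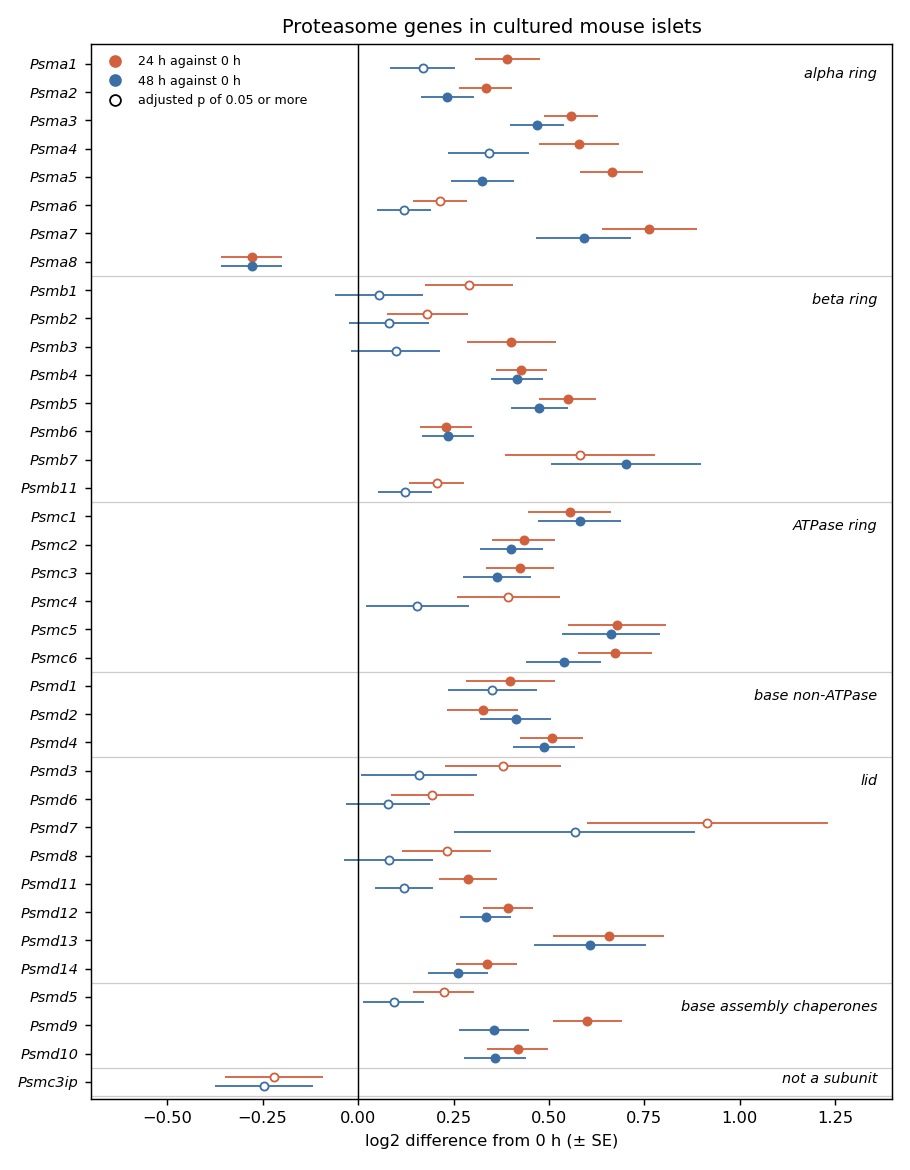
Log2 difference from 0 h (± limma's standard error) of each of the 37 genes at 24 h and 48 h of culture, grouped by place in the proteasome; filled points have an adjusted p under 0.05. Points of the 34 broadly expressed genes lie to the right of 0 at both times, while Psma8 lies at -0.28 at both.

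Promoter sequences of these genes were searched for short motifs, since so many of them moved together. RefSeq windows for GRCm38.p6, from 250 bases before to 50 bases after a start site, were at hand for 30 of the 37 genes, and for 28 of the 34; those of Psma8, Psmb1, Psmb2, Psmb7, Psmc3, Psmd3 and Psmd7 were not used here. The antioxidant response element, searched as TGACNNNGC on both strands, is bound by NFE2L1 and NFE2L2 with small MAF proteins. It was found in 5 of the 28 (17.9%), namely Psmb5, Psmb6, Psmc6, Psmd12 and Psmd9, and in 14% of all genes with a window. The windows of Psmb5 and Psmc6, whose signals rose at both times, are shown up to the start site, in capitals the response elements and, in Psmc6, an ETS site as well. Both genes lie on chromosome 14, Psmb5 on the minus strand (chr14:54617996-54618245) and Psmc6 on the plus strand (chr14:45329574-45329823).
Psmb5: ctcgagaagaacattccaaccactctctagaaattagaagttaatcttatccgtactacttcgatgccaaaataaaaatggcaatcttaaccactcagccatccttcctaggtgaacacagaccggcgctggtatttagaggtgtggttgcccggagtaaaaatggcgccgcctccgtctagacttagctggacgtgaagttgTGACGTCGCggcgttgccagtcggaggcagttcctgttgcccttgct
Psmc6: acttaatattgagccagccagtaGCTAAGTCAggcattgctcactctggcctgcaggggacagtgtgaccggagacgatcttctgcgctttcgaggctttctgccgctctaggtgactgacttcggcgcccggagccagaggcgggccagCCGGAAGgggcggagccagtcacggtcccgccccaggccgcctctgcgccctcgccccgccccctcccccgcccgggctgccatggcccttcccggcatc
The elements of the other 3 genes are shown with their neighbouring bases, and in Psmd12 the motif reads on the opposite strand. They lie at chr11:70525339-70525365 (Psmb6, plus strand), chr11:107479278-107479298 (Psmd12, plus strand) and chr5:123228150-123228176 (Psmd9, plus strand).
Psmb6: taaagagagTGACGGAGCgctttacga
Psmd12: tctGCTGTGTCAcatttgccc
Psmd9: tctagccggTGACCCCGCccacttcca
The stricter form TGACTCAGC was in none of the 28 and in 0.503% of all genes. All 5 genes with the element rose at both times. Of the 23 genes without it in the window, 18 rose at 24 h and 13 at 48 h. The median difference at 24 h was 0.55 with and 0.40 without the element, and at 48 h it was 0.36 and 0.34. Of the 5 genes, Psmb6 lost its call at both times with the batch as a block. Whether genes with and without the element differed was not tested.

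The ETS site, searched as CCGGAAG on both strands, is bound by transcription factors of the ETS family in many housekeeping promoters. It was in 10 of the 28 windows (35.7%), namely those of Psma6, Psmc1, Psmc2, Psmc6, Psmd11, Psmd12, Psmd13, Psmd2, Psmd4 and Psmd6, and in 9.93% of all genes. Of the 10 genes, 6 are shown with the site in capitals, all but that of Psmd4 within 60 bases of the start; CTTCCGG is the same site on the opposite strand. They lie at chr3:95042724-95042748 (Psmd4, minus strand), chr7:140882379-140882403 (Psmd13, plus strand), chr11:80428595-80428619 (Psmd11, plus strand), chr12:100110165-100110189 (Psmc1, plus strand), chr14:14120975-14120999 (Psmd6, minus strand) and chr16:20651617-20651641 (Psmd2, plus strand).
Psmd4: acagctgttCCGGAAGctgctgcga
Psmd13: cccgcggtgCCGGAAGtgagcgagc
Psmd11: agggcgggtCTTCCGGgtgtgtgtt
Psmc1: gtggatgcaCTTCCGGcggtggcga
Psmd6: gagacgcgaCCGGAAGtcagactgg
Psmd2: cgcagggcgCTTCCGGtctggagga
At 24 h, 8 of the 10 genes with the site and 15 of the 18 without it were called higher, with a median difference of 0.41 in either group. At 48 h, 7 of the 10 and 11 of the 18 were called higher, with medians of 0.41 and 0.33. The difference between genes with and without the site was not tested. The other motifs searched were CCAAT (11 genes, 39.3%, against 41.1% of all genes), TATAAA (3 genes, 10.7%, against 15.7%), the interferon-stimulated response element (3 genes, 10.7%, against 3.99%), the YY1 site AAGATGGCG (2 genes, 7.14%, against 1.64%), the nuclear respiratory factor site GCGCATGCG (1 gene, 3.57%, against 1.95%) and the heat shock element (0 genes, against 0.662%). Motifs can overlap each other, and a match in these letters is a description of the sequence, not evidence of binding.

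Of the catalytic subunits, Psmb5 and Psmb6 rose at both times and Psmb7 at 48 h. Psmb5 encodes the chymotrypsin-like site of the core, the main target of proteasome inhibitors used as drugs. Its signal was 10.23, 10.09, 10.04, 9.95 and 9.95 on the 0 h arrays of batches 1, 2, 3, 4 and 6. At 24 h the lowest, median and highest values were 10.51, 10.59 and 10.72, and at 48 h they were 10.33, 10.54 and 10.71. Every cultured array thus lay above every 0 h array. The difference was 0.55 ± 0.08 (SE) at 24 h, or 1.46-fold (adjusted p = 7.66e-05), and 0.48 ± 0.08 at 48 h, or 1.39-fold (adjusted p = 0.000438).

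Psmb6, the caspase-like site, changed by less. At 0 h it read 10.37, 10.33, 10.15, 10.16 and 10.23 in the same order of batches. At 24 h it ran from 10.38 through a median of 10.48 to 10.56, and at 48 h from 10.38 through 10.48 to 10.70. The groups did not overlap, but the gap between the highest 0 h array and the lowest cultured ones was small. The difference was 0.23 ± 0.07 at 24 h (1.17-fold, adjusted p = 0.0423) and 0.24 ± 0.07 at 48 h (1.18-fold, adjusted p = 0.0388). With the batch as a block, Psmb6 no longer passed at either time (adjusted p = 0.129 and 0.111). Leaving out 1 array at a time, it was lost in 10 of 17 fits at 24 h, with adjusted p up to 0.114, and in 7 of 17 at 48 h, up to 0.104.

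Psmb7, the trypsin-like site, had the larger differences and the larger spread. At 0 h it read 9.61, 9.73, 9.04, 9.33 and 9.06. At 24 h the lowest, median and highest values were 9.39, 9.86 and 10.50, and at 48 h they were 9.62, 10.06 and 10.46. The batches 1 and 2 were high at 0 h and stayed near that value, and the groups overlapped at both times. At 24 h the lowest array, of batch 6, also lay below the 0 h arrays of batches 1 and 2. The difference of 0.58 ± 0.20 at 24 h did not pass (adjusted p = 0.0790), and that of 0.70 ± 0.20 at 48 h did (1.63-fold, adjusted p = 0.0314). The 48 h call for Psmb7 was lost with the batch as a block (0.60, adjusted p = 0.0701) and in 6 of 17 fits without 1 array, with adjusted p up to 0.0859.

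**Figure D3:**
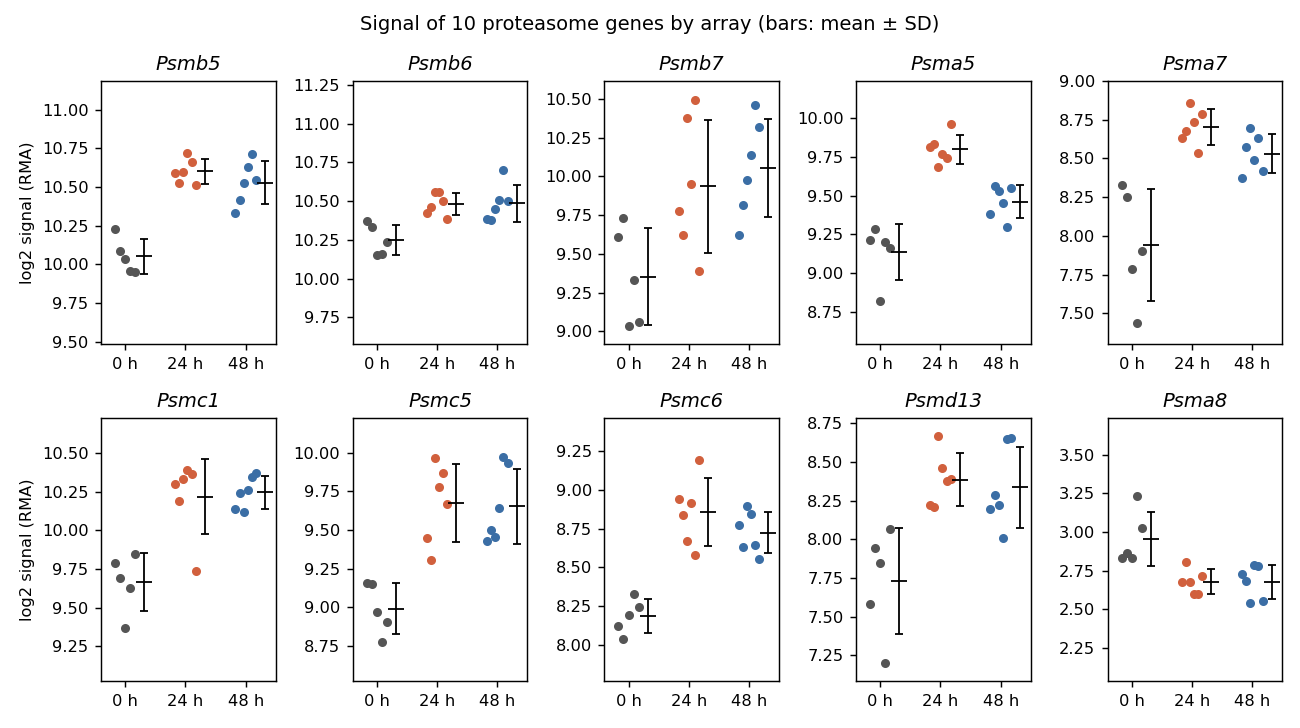
Log2 signal of 10 genes on each of the 17 arrays at 0 h (n = 5), 24 h (n = 6) and 48 h (n = 6); bars give the mean ± SD, and all panels span the same log2 distance. Psmb5, Psma5, Psma7, Psmc5 and Psmc6 show no overlap between 0 h and either later time, while the 0 h arrays of Psmb7 reach into the later groups.

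The beta ring as a whole has 8 genes under the rule, of which 4 rose at 24 h (Psmb3, Psmb4, Psmb5 and Psmb6) and 4 at 48 h (Psmb4, Psmb5, Psmb6 and Psmb7). Its non-catalytic subunits shape the chamber and the contacts between the rings. Psmb4, whose product joins the core late in assembly, was 10.76 ± 0.08 (SD, n = 5) at 0 h, 11.19 ± 0.11 (n = 6) at 24 h and 11.18 ± 0.10 (n = 6) at 48 h. It rose by 0.43 ± 0.07 (SE) and 0.42 ± 0.07, with no overlap with 0 h (adjusted p = 0.000322 and 0.000532). The other probe set of Psmb4 gave no such separation at 48 h. Its 0 h arrays (10.05 to 10.18) all lay below its 24 h arrays (10.30 to 10.56), but its 48 h arrays (10.01 to 10.43) overlapped with them. Psmb3 rose at 24 h alone (0.40 ± 0.12, adjusted p = 0.0379), with overlapping groups, and that call was lost in 10 of 17 fits without 1 array (adjusted p up to 0.0995). Psmb1 and Psmb2 were not called, with differences of 0.29 and 0.18 at 24 h and 0.06 and 0.08 at 48 h. Psmb2 read 8.61 on the 24 h array of batch 5, where the other 5 lay between 9.09 and 9.36. Without that array, Psmb1 and Psmb2 passed at 24 h (adjusted p = 0.0125 and 0.0236).

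The alpha ring had 6 of 8 genes higher at 24 h and 4 at 48 h, with Psma8 lower at both. Psma5 had the lowest adjusted p of all members at 24 h. It read 9.21, 9.29, 8.82, 9.20 and 9.16 at 0 h, from 9.69 through a median of 9.79 to 9.96 at 24 h, and from 9.30 through 9.49 to 9.56 at 48 h. The 3 groups did not overlap with each other, the 48 h arrays lying between the others. The difference was 0.66 ± 0.08 at 24 h (1.58-fold, adjusted p = 2.27e-05) and 0.33 ± 0.08 at 48 h (1.25-fold, adjusted p = 0.0167). The 0 h array of batch 3 was low for Psma5, and without it the 48 h difference was 0.25 (adjusted p = 0.0449).

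Psma7 showed the largest difference among the genes that rose at 24 h, and a wide spread at 0 h. Its 0 h values were 8.33, 8.25, 7.79, 7.44 and 7.91. At 24 h it ran from 8.53 through a median of 8.70 to 8.86, and at 48 h from 8.37 through 8.54 to 8.70. All cultured arrays lay above all 0 h arrays, at 48 h by a narrow margin. The difference was 0.76 ± 0.12 at 24 h (1.70-fold, adjusted p = 0.000422) and 0.59 ± 0.12 at 48 h (1.51-fold, adjusted p = 0.00464).

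Of the other alpha subunits, Psma3 rose from 10.87 ± 0.17 (SD, n = 5) to 11.43 ± 0.06 (n = 6) and 11.34 ± 0.05 (n = 6), with no overlap. Its adjusted p of 0.000279 was the lowest of all members at 48 h. Psma2 rose by 0.33 at 24 h (adjusted p = 0.00380) and by 0.23 at 48 h (adjusted p = 0.0435), and the 48 h call was lost in 11 of 17 fits without 1 array (up to 0.118). Psma1 and Psma4 rose at 24 h by 0.39 and 0.58 (adjusted p = 0.00565 and 0.00124), and their differences at 48 h were 0.17 and 0.34 (0.267 and 0.0528). Psma6 had a difference of 0.21 at 24 h (adjusted p = 0.0711) and 0.12 at 48 h (0.353), and it passed at 24 h with the batch as a block (0.0359). Another probe set of Psma6 ran from 9.46 to 9.61 at 0 h. It lay between 9.85 and 10.02 at 24 h and between 9.72 and 9.95 at 48 h. Taken from that probe set, Psma6 was called higher at both times.

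Of the 6 ATPases of the base, 5 rose at both times, and the medians of the ring were 0.49 at 24 h and 0.47 at 48 h. These subunits hydrolyse ATP to pull the substrate into the core. Psmc5 read 9.16, 9.15, 8.97, 8.78 and 8.91 at 0 h, from 9.31 through a median of 9.72 to 9.96 at 24 h, and from 9.43 through 9.57 to 9.97 at 48 h. The groups did not overlap, and batches 1 and 2 were the lowest at 24 h. The difference was 0.68 ± 0.13 at 24 h (1.60-fold, adjusted p = 0.00173) and 0.66 ± 0.13 at 48 h (1.58-fold, adjusted p = 0.00247).

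Psmc6 read 8.12, 8.04, 8.19, 8.33 and 8.24 at 0 h. It ran from 8.58 through 8.88 to 9.19 at 24 h and from 8.55 through 8.71 to 8.89 at 48 h, with no overlap with 0 h. The differences of Psmc6 were 0.67 ± 0.10 (1.59-fold, adjusted p = 0.000131) and 0.54 ± 0.10 (1.45-fold, adjusted p = 0.00138). Taken as the mean of all its probe sets, Psmc6 changed by 0.24 at 48 h and did not pass (adjusted p = 0.125).

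Psmc1 read 9.79, 9.69, 9.37, 9.63 and 9.85 at 0 h. Its 24 h values were 9.74 in batch 6 and between 10.19 and 10.39 in the other 5 batches, so that 1 array alone made the groups overlap. At 48 h it ran from 10.12 through 10.25 to 10.37. Psmc1 rose by 0.55 ± 0.11 at 24 h (adjusted p = 0.00251) and by 0.58 ± 0.11 at 48 h (adjusted p = 0.00195).

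Psmc2 and Psmc3 rose at both times with no overlap, Psmc2 by 0.43 and 0.40 (adjusted p = 0.00191 and 0.00413) and Psmc3 by 0.42 and 0.36 (0.00426 and 0.0139). Psmc4 had a difference of 0.39 at 24 h (adjusted p = 0.0822) and 0.16 at 48 h (0.576). It passed at 24 h without the array of batch 5 (adjusted p = 0.0403) and with the batch as a block (0.0330).

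The 3 other subunits of the base all rose at 24 h, and Psmd2 and Psmd4 also at 48 h. Psmd4, a ubiquitin receptor, read 8.89 ± 0.07 (SD, n = 5) at 0 h, 9.40 ± 0.14 (n = 6) at 24 h and 9.37 ± 0.15 (n = 6) at 48 h, and its groups did not overlap. It rose by 0.51 and 0.49 (adjusted p = 0.000387 and 0.000718). Psmd2, a docking subunit, rose by 0.33 (adjusted p = 0.0347) and 0.41 (0.00811), and its groups overlapped at 24 h only. The 24 h call of Psmd2 was lost in 6 of 17 fits without 1 array (up to 0.0914) and with the batch as a block (0.0994). Psmd1, the large scaffold, had 0.40 at 24 h (adjusted p = 0.0393) and 0.35 at 48 h (0.0726). The 24 h call of Psmd1 was lost with the block (0.0949) and in 6 of 17 fits (up to 0.113).

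In the lid, 4 of 8 genes rose at 24 h and 3 at 48 h. Psmd13 read 7.58, 7.94, 7.85, 7.20 and 8.07 at 0 h, from 8.21 through a median of 8.38 to 8.67 at 24 h, and from 8.01 through 8.25 to 8.65 at 48 h. The 24 h arrays lay above all 0 h arrays, while the lowest 48 h array, of batch 4, fell below the 0 h array of batch 6. Psmd13 rose by 0.66 ± 0.15 (1.58-fold, adjusted p = 0.00652) and by 0.61 ± 0.15 (1.52-fold, adjusted p = 0.0122). Psmd12 rose by 0.39 and 0.33 with no overlap at either time (adjusted p = 0.000596 and 0.00295).

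Psmd14, the enzyme that cuts the ubiquitin chain from the substrate, rose by 0.34 at 24 h (adjusted p = 0.00940) and by 0.26 at 48 h (0.0460). Its 48 h call was lost in 12 of 17 fits without 1 array (up to 0.108) and with the batch as a block (0.0526). Psmd11, a lid subunit that braces the regulatory particle against the core, rose at 24 h alone (0.29, adjusted p = 0.0210). Psmd11 read 10.91 in batch 6 at 24 h and between 10.45 and 10.53 in the other 5 batches. Its call was lost without the 0 h array of batch 4 (adjusted p = 0.0547). Psmd11 also did not pass at 24 h with only the arrays of the compared times, with the mean of all its probe sets, or with another probe set in place of the chosen one.

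Psmd7, the partner of Psmd14 in the lid, had the largest difference of the 34 genes at 24 h and the widest spread at all 3 times. It read 6.84, 6.60, 6.26, 5.37 and 5.61 at 0 h, from 6.42 through a median of 7.22 to 7.61 at 24 h, and from 5.88 through 6.69 to 7.38 at 48 h. The groups overlapped broadly, and neither 0.92 ± 0.31 at 24 h (adjusted p = 0.0855) nor 0.57 ± 0.31 at 48 h (0.325) passed. Psmd3, Psmd6 and Psmd8 were not called, with 0.38, 0.19 and 0.23 at 24 h and 0.16, 0.08 and 0.08 at 48 h. Psmd3 read 7.75 on the 24 h array of batch 5, against 8.48 to 8.61 on the other 5, and without that array it passed at 24 h (adjusted p = 0.00803).

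The assembly chaperones of the base, which hold the ATPases until the regulatory particle is complete and are absent from the finished proteasome, are 3 of the members, and 2 of them rose at both times. Psmd9 read 5.97 ± 0.22 (SD, n = 5) at 0 h, 6.57 ± 0.14 (n = 6) at 24 h and 6.32 ± 0.07 (n = 6) at 48 h. It rose by 0.60 at 24 h (1.52-fold, adjusted p = 0.000213), with no overlap, and by 0.36 at 48 h (adjusted p = 0.0189), with overlap. The 48 h call of Psmd9 was lost without the 0 h array of batch 1 (0.0554) or batch 2 (0.0577). Psmd10, also known as gankyrin, rose by 0.42 and 0.36 (adjusted p = 0.00200 and 0.00746). Psmd5 had 0.22 and 0.09 and was not called (0.0978 and 0.570).

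The remaining 3 genes of the rule are not part of the broadly expressed proteasome, and 1 of them, Psma8, was called. It read 2.84, 2.86, 2.83, 3.24 and 3.03 at 0 h, from 2.60 through a median of 2.67 to 2.81 at 24 h, and from 2.54 through 2.70 to 2.79 at 48 h. These values lie under the median of all values, 3.52, and no detection call separates them from background. Psma8 fell by 0.28 at 24 h (adjusted p = 0.0332) and by 0.28 at 48 h (adjusted p = 0.0339), with no overlap, and neither call held with the batch as a block (0.0623 and 0.0611). Psmb11 lay between 2.76 and 2.96 on average at the 3 times and was not called. Psmc3ip read 4.89 ± 0.34 at 0 h, 4.67 ± 0.16 at 24 h and 4.64 ± 0.17 at 48 h, and was not called either.

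Averaged over the 34 genes, the arrays of 0 h stood apart from the rest. The mean log2 signal was 9.06, 8.99, 8.95, 8.90 and 8.97 at 0 h. The 24 h arrays covered 9.33 to 9.49 and the 48 h arrays 9.25 to 9.39. No cultured array came down to the highest 0 h array, while the 24 h and 48 h groups overlapped. Within batches, 30 of the 34 genes were higher at 24 h than at 0 h in all 5 batches that have both times, and the other 4 (Psmb7, Psmc1, Psmd1 and Psmd7) were so in 4 batches. At 48 h, 23 genes were higher in all 5 batches, 5 in 4 batches and the rest in 3. For these counts within batches, the share over all genes was not determined. The 24 h array of batch 5 was the lowest of its time for 16 of the 34 genes and the highest for 3.

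**Figure D4:**
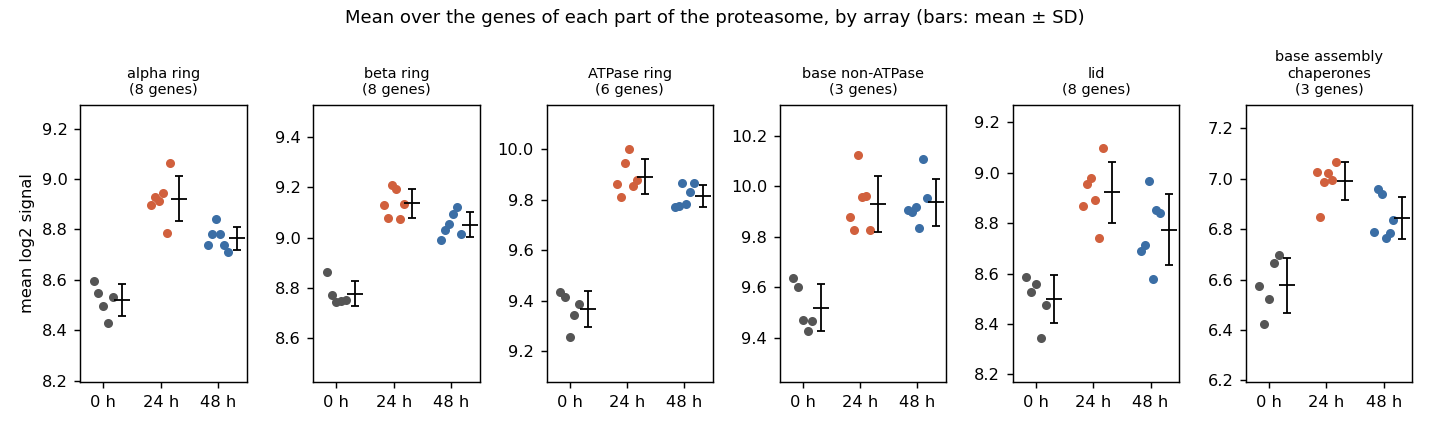
Mean log2 signal over the genes of each part of the proteasome on each array, at 0 h (n = 5), 24 h (n = 6) and 48 h (n = 6), with bars for the mean ± SD; the alpha ring includes Psma8 and the beta ring Psmb11, and all panels span the same log2 distance. In the ATPase ring the 0 h arrays lie between 9.25 and 9.43 and all later arrays between 9.77 and 10.00, while in the lid the lowest 48 h array touches the 0 h range.

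Between 24 h and 48 h, no member passed in either direction, beside 0.429% of all genes called higher and 0.330% called lower. An unadjusted p under 0.05 was reached by 7 of the 34 genes, beside 14.2% of all genes. The median difference was -0.10 over the 34 genes, or 0.935-fold, and 30 of them were lower at 48 h. The values lay between -0.35 (Psmd7) and 0.12 (Psmb7). Psma5 came closest to the threshold, at -0.34 ± 0.08 (adjusted p = 0.0636), with a lower value at 48 h in all 6 batches. It was the 1 gene of the 34 whose arrays did not overlap between these times, beside 1.57% of all genes. Psma5 passed when the arrays were quantile-normalised again (0.0246), with array weights (0.0428), without the 0 h array of batch 3 (0.0220), and without that array and the 24 h array of batch 5 (0.0244). Psmd11 was also lower at 48 h in all 6 batches (-0.17, adjusted p = 0.384).

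The catalytic subunits have inducible counterparts. On stimulation by interferons, Psmb8, Psmb9 and Psmb10 replace Psmb5, Psmb6 and Psmb7 in newly built core particles, which makes the immunoproteasome. All 3 rose more than their constitutive partners, by 1.37, 1.20 and 1.84 at 24 h and by 1.01, 0.69 and 1.46 at 48 h. To compare each pair, the log2 ratio of the immune to the constitutive gene was taken within each array and set against its mean at 0 h. Only changes of this ratio have a meaning, as the probe sets of a pair differ in response.

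The ratio of Psmb8 to Psmb5 was -0.17, -0.04, 0.12, -0.04 and 0.12 at 0 h relative to the mean of these arrays. At 24 h it lay between 0.63 and 0.97 and at 48 h between 0.20 and 0.77. All cultured arrays were above all 0 h arrays. The change was 0.82 at 24 h, or 1.77-fold, and 0.53 at 48 h, or 1.45-fold, and by two-sided exact permutation tests adjusted over 9 tests the p-values were 0.00487 and 0.00779. The ratio of Psmb9 to Psmb6 changed by 0.97 at 24 h, or 1.96-fold, and by 0.45 at 48 h, or 1.37-fold (exact permutation, adjusted p = 0.00487 for both). The ratio of Psmb10 to Psmb7 changed by 1.25 at 24 h, or 2.39-fold (adjusted exact p = 0.00835), and by 0.76 at 48 h (adjusted exact p = 0.0292), and its 0 h arrays spread from -0.54 to 0.77.

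**Figure D5:**
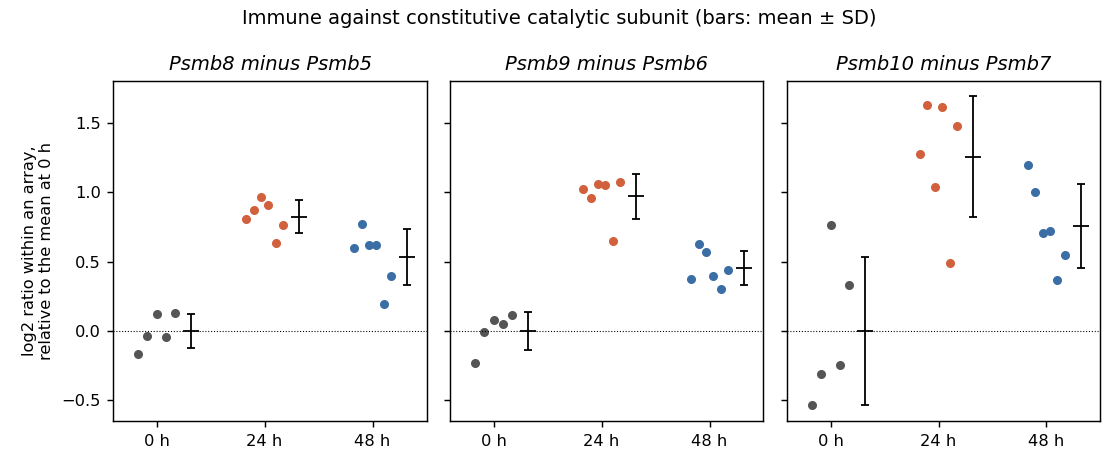
Log2 ratio of each immunoproteasome catalytic gene to its constitutive counterpart within each array, relative to the mean at 0 h, with bars for the mean ± SD (n = 5, 6 and 6). All 3 ratios are higher at 24 h than at 0 h, by 0.82, 0.97 and 1.25, and lower at 48 h than at 24 h; the 0 h arrays of the third ratio spread widest.

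From 24 h to 48 h the 3 ratios went down again, by -0.29 for Psmb8 to Psmb5, -0.52 for Psmb9 to Psmb6 and -0.50 for Psmb10 to Psmb7 (adjusted exact p = 0.00835, 0.00487 and 0.0498). Within batches, the mean changes from 0 h were 0.86, 1.03 and 1.41 at 24 h and 0.60, 0.48 and 0.83 at 48 h. A sign-flip test over 5 batches cannot go below an exact p of 0.0625, which all of these reached except Psmb10 to Psmb7 at 48 h (0.125). When a gene was taken as the mean of all its probe sets, the ratio of Psmb8 to Psmb5 at 48 h changed by 0.16 only (adjusted exact p = 0.188). That mean includes a probe set of Psmb8 that read 2.39 to 3.21, under the median of all values, 3.52. The changes of Psmb10 to Psmb7 at 48 h, against either earlier time, also lost their call when single arrays were left out, with adjusted exact p up to 0.0635 against 0 h and 0.0931 against 24 h.

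Genes of partners of the proteasome were taken from lists. Of 4 measured activators and inhibitors, 2 rose at both times: Psme1, a subunit of the interferon-induced activator of the core (0.91 and 0.62, adjusted p = 0.000273 and 0.00879), and Psme3, its nuclear relative (0.30 and 0.31, 0.00401 and 0.00389). Of 5 chaperones of core assembly, 2 rose at 24 h, Psmg1 and Psmg2 (0.30 and 0.31, adjusted p = 0.0364 and 0.0485), and 2 at 48 h, Psmg1 and Psmg4 (0.51 and 0.41, adjusted p = 0.000747 and 0.0380). Pomp, which drives the maturation of the core, was not called (0.35 at 24 h, adjusted p = 0.158). Of 5 other partners of the regulatory particle, 1 rose at each time, both of them deubiquitinases: Usp14 at 24 h (0.48, adjusted p = 0.00134) and Uchl5 at 48 h (0.76, adjusted p = 0.00265). Both patterns depended on the probe set. Another probe set of Usp14 ran from 5.99 to 6.74 at 0 h. It lay above these values at 24 h (6.82 to 7.53) and at 48 h (7.05 to 7.53), while further probe sets of Usp14 overlapped between times. The second probe set of Uchl5 covered 4.67 to 5.62 at 0 h and 4.54 to 5.56 at 48 h. Psmf1, of the activators and inhibitors, was not called, but another of its probe sets ran from 7.16 to 7.30 at 0 h. That probe set lay between 7.53 and 7.76 at 24 h and between 7.34 and 7.64 at 48 h.

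Of 9 measured genes of ubiquitin supply and of the delivery of substrates, Sqstm1, an autophagy receptor that binds ubiquitin chains, rose at both times (1.18 and 0.75, adjusted p = 2.73e-07 and 5.52e-05). Vcp, the ATPase that extracts ubiquitinated proteins from complexes and membranes, rose at 48 h alone (0.37, adjusted p = 0.0490). Ufd1 was not called, but another of its probe sets ran from 6.26 to 6.48 at 0 h. That probe set lay between 6.80 and 7.16 at 24 h and between 6.75 and 7.07 at 48 h. The transcription factor NFE2L1 is itself degraded by the proteasome, and when proteasome activity falls short it is processed and activates proteasome genes together with small MAF proteins. Of 7 measured genes of this axis, 3 rose at each time, namely Nfe2l1 itself (0.42 and 0.44, adjusted p = 0.0264 and 0.0208), Maff (0.92 and 0.69, adjusted p = 0.000671 and 0.00856) and Mafg (0.68 and 0.65, adjusted p = 0.000128 and 0.000302). No gene of these lists was called lower at either time, beside 6.66% of all genes at 24 h and 5.27% at 48 h. The lowest difference at 24 h was -0.29, of Ecpas, a partner of the regulatory particle. Its 24 h arrays all lay below its 0 h arrays. Between 48 h and 24 h no gene of these lists passed, apart from Psmb8 and Psmb9 of the immunoproteasome, which fell by 0.37 and 0.51 (adjusted p = 0.0487 and 0.00492).

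The second probe sets of the members gave a check on the choice of 1 per gene. Of the 76 probe sets, 60 had a mean above the median of all values, and 33 of these were called higher and none lower at 24 h, beside 3.86% and 4.72% of all probe sets. At 48 h, 27 of the 60 were called higher and none lower, beside 4.67% and 3.80%. The other 16 probe sets lie at or under that median, and 1 of them, that of Psma8, was called lower at both times. Without the probe set chosen for each gene, 25 remained above the median, from 17 genes, of which 9 were called higher at 24 h and 7 at 48 h, with median differences of 0.24 and 0.18.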

How the data were processed

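The authors deposited log2 signals, 1 per probe set and array. The submitters' processing notes name RMA, without a version in the sources used here. That the logarithm has base 2 follows from the range of the values, 1.55 to 13.81, and is not stated. RMA makes the distributions of all arrays alike, which removes any change common to most transcripts, and it compresses differences of weak signals. No detection call was used, so background was not told apart from values near the table's median of 3.52. Precision is limited by the number of arrays.

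Of 45101 probe sets, 64 are controls and stayed out; the test ran on the other 45037 at any level. In the platform's annotation, 34945 of them have 1 symbol, 932 have several and 9160 are absent. Means per time were fitted to all 17 arrays with limma 3.58.1 in R 4.3.3 (lmFit and eBayes), with Benjamini-Hochberg adjustment over all tested probe sets and a threshold of 0.05; the scripts were tested on simulated data. Ratios of subunits were tested by exact permutation, two-sided. Promoters were searched for 9 motifs.

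The members, gene lists and tests were chosen with earlier results of these data known. The level of 9 for high signals, leaving out both arrays that stood apart and the acinar covariate were chosen after seeing the data. Each 0 h value and the range at 24 h and 48 h are given for Psmb5, Psmb6 and Psmb7. The same holds for the 5 largest called rises and falls in each comparison, and for Psmd7, which was chosen after its values were seen. Of each other list, up to 4 called genes with the largest differences are named, and Pomp was added after its values were seen. Alternatives were the batch as a block, complete batches, other scalings, a filter on level, array weights, another variance prior, other probe set choices, the arrays of the compared times alone, and leaving out each array.

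Arrays of the same number come from the same pool of islets, per the study's design text, and so are paired by design. After subtraction of each time's mean, they correlated at a median of 0.00545 over 16 pairs (-0.159 to 0.274), against -0.00978 over 80 pairs of different batches, and limma's consensus correlation within batches was 0.0183.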

Additional observations from a re-analysis of the deposited data

Results flagged for a closer look

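Single arrays stood apart from the others of their time in 9 of 120 groups of a gene and a time, over the 37 genes and the 3 immunoproteasome genes. A gap this wide arises by chance in about 1 in 20 groups. At 0 h, Psma5 was 8.82 in batch 3, against 9.16 to 9.29 in the others, and Psmb2 was 8.75 in batch 2, against 8.95 or more. At 24 h, the array of batch 5 was low for Psmb2 (8.61, against 9.09 to 9.36) and Psmd3 (7.75, against 8.48 to 8.61). The array of batch 6 was low for Psmc1 (9.74, against 10.19 to 10.39) and high for Psmd11 (10.91, against 10.45 to 10.53). At 48 h, Psmb4 was 10.99 in batch 1, against 11.19 to 11.26. The array of batch 3 was high for Psmd8 (8.55, against 8.14 to 8.24) and low for Psmb10 (8.65, against 8.78 to 8.83).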

How the results depend on the processing

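All 34 broadly expressed genes kept a positive difference at 24 h under all 30 alternatives, and at 48 h in all but 1 of 1020 values, that of Psmb1 as the mean of its probe sets. The count of genes higher at 24 h was 19 to 27 when 1 array was left out, and the count at 48 h was 16 to 21; 19 of the 24 calls and 15 of the 20 calls held in all 17 such fits. With the batch as a replicate block, 23 genes were higher at 24 h and 17 at 48 h, and beside the genes named with a block value above no other call of a member changed. The count at 48 h was 5 with the acinar covariate, with which the median standard error was 0.13 in place of 0.09. The median difference over the 37 genes was 0.34 at 24 h and 0.23 at 48 h with the mean of all probe sets of a gene, and 0.28 at 48 h after a second quantile normalization. Leaving out 1 array, the 24 h median stayed between 0.37 and 0.43 and the 48 h median between 0.30 and 0.34.

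The count of genes called lower than at 0 h, which is Psma8 alone, was 0 with the batch as a block, with only probe sets above the median level (which leaves Psma8 out) and with only the arrays compared, at 24 h also with complete batches, and at 48 h also with each array centred on its median and with the acinar covariate. It was 0 to 1 when 1 array was left out. Between 48 h and 24 h, the count of lower genes was 1 (Psma5) after a second quantile normalization, with array weights and without both arrays that stood apart, and 0 to 1 when 1 array was left out. The cause was not tested.

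Of the ratios of immune to constitutive subunits, those within batches (the pairing as a block) were 0.86, 0.60 and -0.29 for Psmb8 to Psmb5 at 24 h, at 48 h and between 48 h and 24 h. They were 1.03, 0.48 and -0.52 for Psmb9 to Psmb6, and 1.41, 0.83 and -0.50 for Psmb10 to Psmb7. Their adjusted exact p was 0.0703, or 0.125 for Psmb10 to Psmb7 at 48 h, and so few batches cannot pass the threshold after adjustment. With the mean of all probe sets, Psmb8 to Psmb5 changed by 0.16 at 48 h against 0 h (adjusted exact p = 0.188) and by -0.22 against 24 h (0.0609), and Psmb10 to Psmb7 by -0.50 against 24 h (0.0609). For Psmb8, that mean includes the probe set that read under the median of all values. Without 1 array, Psmb10 to Psmb7 ranged from 0.62 to 0.95 at 48 h against 0 h and from -0.65 to -0.42 against 24 h.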
